A study of Homo sapiens with 18 samples.

Results

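The lysosomal gene set consisted of 46 genes taken by symbol from 38716 gene symbols in the deposited tables, and all 46 were found there. The rule listed the genes by their known function, although the list was drawn up with earlier results of these data known, and comprised 6 lysosomal membrane proteins, 11 proteases, 11 glycosidases, 4 sulfatases, 8 lipid hydrolases or their cofactors, 5 proton pump components and TFEB, a transcription factor for lysosomal genes. IMR90 cells, a line of human fetal lung fibroblasts, were profiled as proliferating cells at low passage ("young"), as cells at high passage in replicative senescence ("old"), and after treatment for 6 days with inflachromene ("ICM"), a compound whose targets are HMGB1 and HMGB2, proteins of chromatin. Each condition had 3 independently grown cultures of this single cell line, and each lysate gave a ribosome profiling library (Ribo-seq) and a poly(A)-enriched mRNA-seq library, 18 libraries in all. Cells were harvested with cycloheximide in every group. Levels are given as CPM, counts divided by the library total and scaled to a common size between libraries, from exonic reads for mRNA-seq and from coding-sequence (CDS) reads for Ribo-seq.

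Lysosomes break down proteins, glycans, glycolipids and lipids with soluble hydrolases that work at low pH. The vacuolar H+-ATPase pumps protons into the lumen, heavily glycosylated membrane proteins line it, and transporters and channels export the products. Senescent fibroblasts are commonly stained for β-galactosidase activity, and GLB1 encodes the lysosomal enzyme behind that stain.

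Depth differed much more between the Ribo-seq libraries, which held 46239 to 1718521 CDS reads, than between the mRNA-seq libraries, which held 7902427 to 14144455 exonic reads. In the shallowest Ribo-seq libraries a single read was therefore worth about 20 CPM. CDS reads made up 34.4% of counted Ribo-seq reads in young replicate 1 and 15.0% in old replicate 2. The other Ribo-seq libraries had 54.7% to 88.8%. Non-coding RNA held 52.5% and 45.2% of counted reads in young replicate 1 and old replicate 2. In old replicate 2, 44.7% of UTR and CDS reads lay in the 5′UTR, against 4.88% and 13.8% in the other old libraries. The part of these differences in the footprint results was not tested. All 9 fibroblast markers had reads in each group, and their summed mRNA-seq level was 32020 to 36269 CPM in young, 30249 to 35126 in old and 13807 to 14312 in ICM libraries. COL1A1 weighed most in this sum, with means of 14510 CPM in young and 3064 in ICM cells. COL1A2, COL3A1, VIM, FN1, PDGFRB and THY1 were also lower in ICM cells. DCN, with 1413 and 1571 CPM, and LUM, with 145 and 144, were not clearly lower. The part of the lower summed level in the results with ICM was not tested. The summed level of 9 macrophage and leukocyte markers stayed at or below 1.85 CPM in mRNA-seq, with MRC1 and AIF1 at 0 in every group. Summed epithelial markers, mostly KRT8, were at 16.7 to 33.0 CPM, and summed endothelial markers at 0.745 to 4.66 CPM. Summed Ribo-seq CPM of 15 genes specific to ICM by mRNA-seq was 1050 in young replicate 1 against 134 and 137 in the other young libraries, and 1167 in old replicate 2 against 187 and 172, so these libraries stood apart from their groups. Mean HMGB2 mRNA fell from 110.2 ± 6.16 CPM in young to 20.3 ± 2.29 in old cells and to 5.12 ± 0.782 with ICM (SD, n = 3).

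As a whole the lysosomal genes took a larger share of the mRNA in both senescent states. They held 0.683%, 0.685% and 0.681% of exonic reads in the young libraries, 0.947%, 0.972% and 0.938% in the old libraries and 1.01%, 1.05% and 1.02% in the ICM libraries. The 3 groups did not overlap, and the exact 95% binomial intervals of old and ICM mRNA-seq libraries did not overlap, the highest old bound being 0.977% and the lowest ICM bound 1.01%. These intervals cover counting error alone and not the spread between cultures. Within the old group, the interval of replicate 2 (0.967% to 0.977%) did not overlap that of replicate 1 (0.941% to 0.953%). Footprint libraries gave 0.819%, 0.754% and 0.762% in young, 1.14%, 1.03% and 1.10% in old and 1.35%, 1.27% and 1.20% in ICM cells. Again no library of a group reached the range of another group, although ICM replicate 3, with 553 reads in these genes, had an interval of 1.10% to 1.30% that included old values. The share is a sum over chosen genes, so no test was applied to it, and CTSB, CD63 and PSAP were the members with the most reads. Such shares are relative to all other RNA, and in bulk samples a change in RNA per cell cannot be told apart from a change in the mix of cells.

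**Figure D1:**
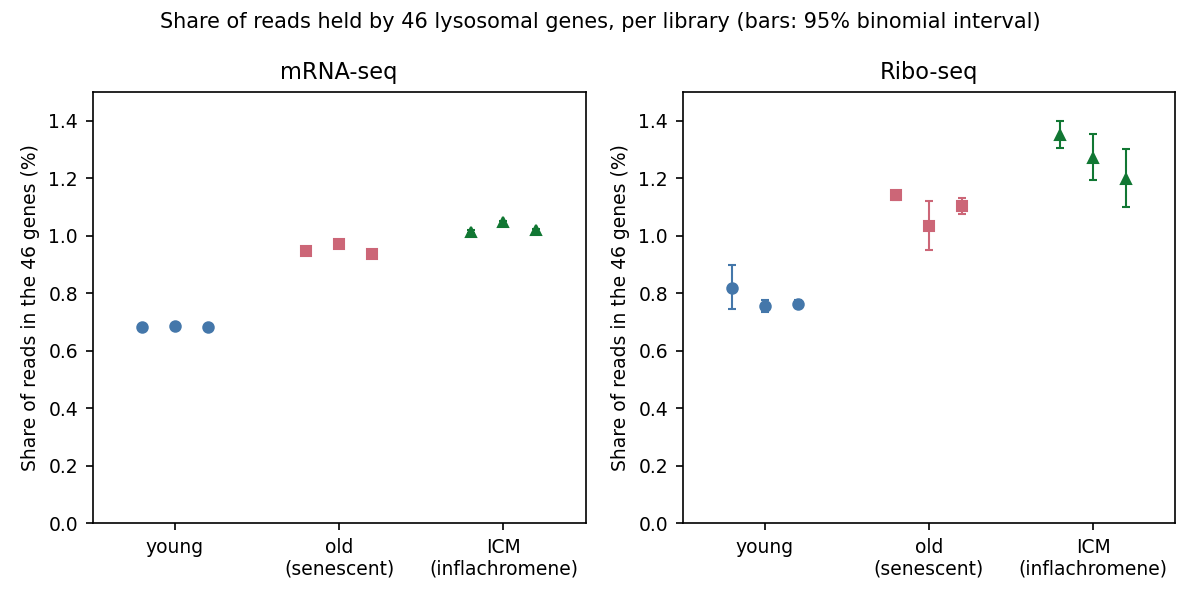
Share of reads (y axis, percent) that fell in the 46 lysosomal genes in each library of young, old and ICM cells, for mRNA-seq (left) and Ribo-seq (right), with exact 95% binomial intervals. Young libraries lie between 0.681% and 0.685% in mRNA-seq and between 0.754% and 0.819% in Ribo-seq, below all old and ICM libraries.

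By role, glycosidases held 0.0430% ± 0.00063 of mRNA reads in young, 0.0570% ± 0.0011 in old and 0.0776% ± 0.0020 in ICM cells (SD, n = 3). The proton pump genes followed the same order, with 0.0422% ± 0.00075, 0.0630% ± 0.00010 and 0.0733% ± 0.00067. Sulfatases had their highest mean in old cells, at 0.0481% ± 0.0022 against 0.0450% ± 0.00086 in ICM and 0.0260% ± 0.00074 in young cells. Membrane proteins were also highest in old cells, at 0.226% ± 0.0145, against 0.215% ± 0.0041 in ICM cells, but the lowest old library (0.212%) lay below the ICM libraries.

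Every member passed the mRNA-seq filter on low counts and was tested with edgeR among 13173 genes. After ICM treatment 33 members rose relative to young cells, 5 fell and 8 were not called at an adjusted p under 0.05, with a median log2 change of 0.56. Of all genes tested 34.9% rose and 36.1% fell in that comparison, with a median of -0.007. In old cells 38 members rose, 4 fell and 4 were not called, also with a median of 0.56, beside 32.4% of all genes that rose, 33.7% that fell and a median of -0.015. Between ICM and old cells the members split, with 18 higher in ICM, 17 lower and 11 not called (median -0.04), close to even as among all genes, of which 30.7% were higher and 32.6% lower. Both comparisons with young cells used the same young libraries, so their calls are not independent of each other. With an absolute log2 change above 0.6 also required, 25, 25 and 13 members were called in the 3 comparisons, so many of the calls were of modest size. The shares of all genes above are without that requirement, so these counts alone do not set the members apart.

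**Figure D2:**
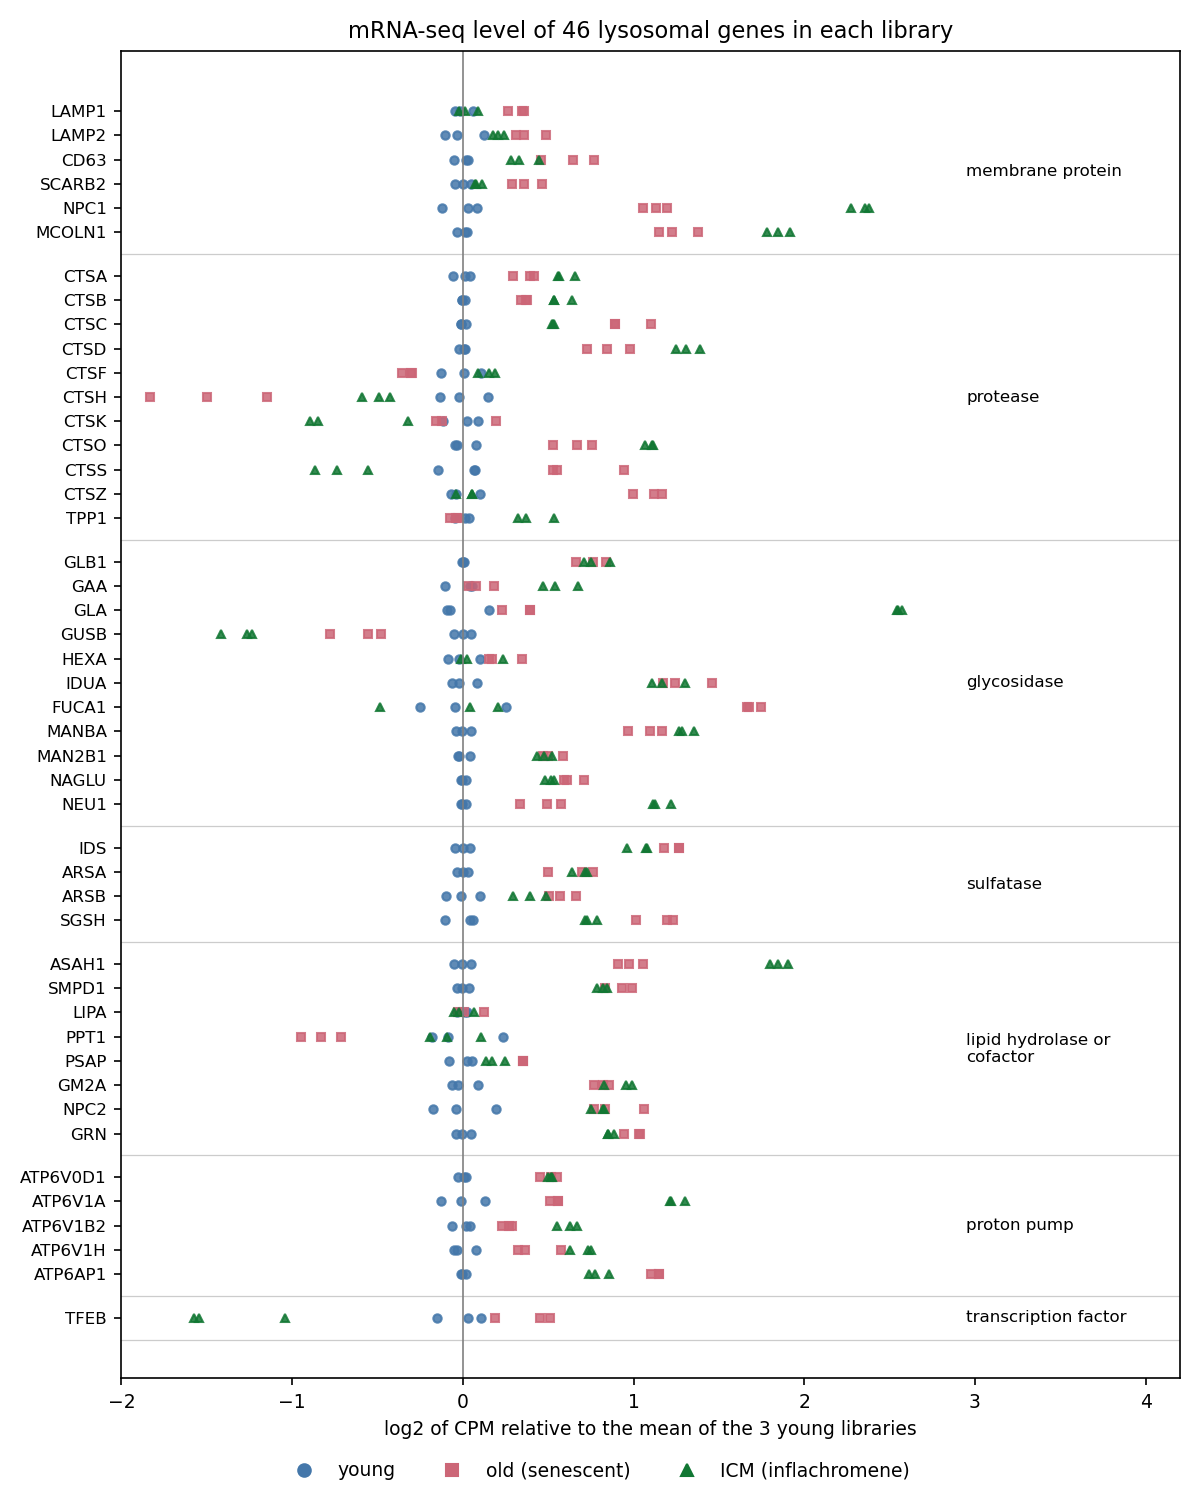
mRNA-seq level of each of the 46 genes in every library (x axis, log2 of CPM relative to the mean of the 3 young libraries), ordered by role, with circles for young, squares for old and triangles for ICM libraries. Most senescent libraries lie to the right of the young ones, GLA and NPC1 are farthest right in ICM cells, and GUSB, CTSH and, in ICM cells only, TFEB lie to the left.

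Members of the lysosomal membrane rose to very different degrees. All 6 rose in old cells, with log2 changes of 0.32 to 1.25, and 4 of 6 rose after ICM treatment. NPC1, the transporter that exports cholesterol from the lysosome, was measured at 29.5, 28.4 and 25.5 CPM in the young libraries, 57.7, 61.0 and 63.8 in old and 142, 145 and 134 in ICM cells. The groups were widely separated, and NPC1 rose 5.06-fold after ICM treatment, a log2 change of 2.34 (SE 0.07, adjusted p = 1.01e-17), and rose further in ICM than in old cells, by 1.21 (SE 0.07, adjusted p = 3.3e-13). MCOLN1, a calcium-permeable channel of the lysosome, stood at 15.1, 15.8 and 15.6 CPM in young, 36.2, 34.4 and 40.3 in old and 53.4, 58.7 and 55.7 in ICM cells. It rose by 1.25 (SE 0.09, adjusted p = 4.48e-11) in old cells, without overlap between the groups, and by 1.84 (SE 0.09, adjusted p = 1.18e-14) in ICM cells. The structural glycoprotein LAMP1, by contrast, was at 346, 352 and 372 CPM in young and 350.1, 359 and 379 in ICM cells, ranges that overlapped, with a difference of 0.03 (SE 0.06, adjusted p = 0.708) and a 95% interval of -0.09 to 0.15. In old cells LAMP1 rose to 456, 427 and 453 CPM. LAMP2, its relative, rose in both states, by 0.21 in ICM and 0.39 in old cells. CD63, a tetraspanin of late endosomes, rose by 0.35 and 0.63, and SCARB2, the receptor that delivers glucocerebrosidase, was called in old cells (log2 change 0.37, against 0.09 without a call in ICM cells). Of these 6 genes, LAMP1, LAMP2, CD63 and SCARB2 were lower in ICM than in old cells and NPC1 and MCOLN1 were higher, each past the threshold. The LAMP2 call between ICM and old cells was lost with CDS reads alone and without ICM replicate 2, ICM replicate 3 or old replicate 2.

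The proteases were divided. Relative to young cells 6 rose and 3 fell in ICM cells, and 7 rose and 2 fell in old cells. CTSD, the main aspartic protease of lysosomes, was at 253, 255 and 248 CPM in young, 453, 417 and 497 in old and 599, 659.7 and 623 in ICM cells. These groups did not overlap, and its log2 changes were 1.32 (SE 0.07, adjusted p = 7.69e-14) in ICM and 0.85 (SE 0.07, adjusted p = 2.35e-10) in old cells. The cysteine cathepsin CTSB and the carboxypeptidase CTSA, which stabilises GLB1 and NEU1, rose in both states by log2 changes between 0.36 and 0.59. CTSO rose too, by 1.09 and 0.66. CTSZ, a carboxypeptidase of the cathepsin family, separated the states, with 114, 101 and 103 CPM in young, 238, 231 and 211 in old and 103, 109.9 and 109.9 in ICM cells. Only the old libraries stood away from the rest, and CTSZ was lower in ICM than in old cells, with a log2 difference of -1.07 (SE 0.07, adjusted p = 2.26e-12). CTSC, the dipeptidyl peptidase that activates serine proteases of leukocytes, rose in both states but was lower in ICM than in old cells, with a log2 difference of -0.44. The tripeptidyl peptidase TPP1 showed the reverse, rising in ICM cells by 0.41 and standing at -0.05 in old cells without a call.

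Of the proteases CTSH, CTSK, CTSS and CTSF fell in one or both states. CTSH, an aminopeptidase, was at 8.44, 9.5 and 7.82 CPM in young, 3.87, 3.04 and 2.41 in old and 5.71, 6.38 and 6.1 in ICM cells, and no group overlapped another. It fell in old cells, with a log2 change of -1.48 (SE 0.17, adjusted p = 6.09e-08), and less in ICM cells, with -0.51 (SE 0.14, adjusted p = 0.00302). CTSK, a collagen-degrading cathepsin, was at 10.1, 8.72 and 9.63 CPM in young, 8.49, 10.8 and 8.71 in old and 5.26, 7.59 and 5.09 in ICM cells. Its ICM libraries lay below all others, and the log2 change from young cells was -0.67 (SE 0.16, adjusted p = 0.000605), whereas old and young libraries overlapped. CTSS, a cathepsin best known from antigen-presenting cells, was at a low level of 1.61, 1.4 and 1.62 CPM in young, 2.26, 2.22 and 2.97 in old and 1.05, 0.925 and 0.848 in ICM cells. Its calls, higher in old cells by 0.69 (SE 0.24, adjusted p = 0.0141) and lower in ICM cells with a log2 change of -0.69 (SE 0.29, adjusted p = 0.0454), were both lost with DESeq2, and the ICM call also without any single ICM or young library. The old call was lost without old replicate 3 or young replicate 2. CTSF fell in old cells (log2 change -0.32) and had 0.14 without a call in ICM cells, and a difference of 0.47 (SE 0.09, adjusted p = 0.000127) separated ICM from old cells.

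GLB1, the lysosomal β-galactosidase, was measured at 66.6, 66.4 and 66.2 CPM in the young libraries, 119, 113 and 105 in old and 112, 121 and 109 in ICM libraries. All senescent libraries lay above all young ones, while old and ICM libraries overlapped. GLB1 mRNA rose 1.71-fold in ICM cells, a log2 change of 0.78 (SE 0.07, adjusted p = 6.01e-10), and 1.69-fold in old cells, a log2 change of 0.76 (SE 0.07, adjusted p = 1.49e-09). The difference between ICM and old cells was 0.02 (SE 0.06, adjusted p = 0.797), with a 95% interval of -0.10 to 0.15. The gene TMPPE on the same strand covers 5.39% of the exonic bases of GLB1 in the GENCODE annotation of GRCh37, so part of the signal could not be told apart from TMPPE.

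Among the other glycosidases 7 further genes rose after ICM treatment and GUSB fell, and in old cells 8 further genes rose and GUSB fell. GLA, the α-galactosidase that clears globotriaosylceramide, was at 28.8, 24.2 and 24.5 CPM in young, 34.0, 34.0 and 30.3 in old and 151, 154 and 151 in ICM cells. The ICM libraries formed a narrow group far above the rest, and the rise of 5.91-fold, a log2 change of 2.56 (SE 0.08, adjusted p = 3.32e-18), was the largest of any member in any mRNA comparison. Old cells rose by 0.35 (SE 0.08, adjusted p = 0.000866), and ICM cells exceeded old cells by 2.21 (SE 0.07, adjusted p = 2.46e-17). FUCA1, the α-L-fucosidase, followed another pattern, with 3.1, 2.53 and 2.19 CPM in young, 8.28, 8.75 and 8.34 in old and 3.0, 2.68 and 1.87 in ICM cells. Only old libraries were raised, by 1.72 (SE 0.17, adjusted p = 1.37e-08), which was the largest rise of any member in old cells, and FUCA1 was lower in ICM than in old cells, with a log2 difference of -1.74 (SE 0.17, adjusted p = 5.66e-09). IDUA, the α-L-iduronidase of dermatan and heparan sulfate breakdown, rose in both states, with 11.0, 10.7 and 11.9 CPM in young, 30.9, 25.4 and 26.6 in old and 25.2, 24.2 and 27.6 in ICM cells. The old libraries exceeded the young ones by 1.29 (SE 0.10, adjusted p = 3.42e-10) without overlap, and those of ICM by 1.19.

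GUSB, the β-glucuronidase that is widely used as a reference gene, was at 23.6, 24.5 and 25.3 CPM in young, 16.7, 14.2 and 17.5 in old and 10.4, 10.2 and 9.16 in ICM cells. Its 3 groups did not overlap, and it fell in ICM cells, with a log2 change of -1.30 (SE 0.10, adjusted p = 1.41e-10), in old cells, with -0.61 (SE 0.10, adjusted p = 8.39e-06), and between old and ICM cells, with -0.69 (SE 0.11, adjusted p = 7.84e-06). GUSB has related pseudogenes, and 36.4% of its non-zero values were not whole, the highest share among the members. The fractional parts of its values summed to 0.34% of its reads. This is not the share of reads that were divided, which cannot be read from these values. NEU1, the sialidase, rose more in ICM cells (1.15) than in old cells (0.47), with a difference of 0.68 (SE 0.07, adjusted p = 9.97e-09). MANBA, the β-mannosidase, rose by 1.30 and 1.08, and the mannosidase MAN2B1 and the heparan sulfate enzyme NAGLU by 0.48 to 0.64. GAA, which degrades glycogen, rose in ICM cells (0.56, against 0.09 without a call in old cells). HEXA, a β-hexosaminidase subunit, rose in old cells (0.23, against 0.09 without a call in ICM cells). The HEXA call was lost without old replicate 2 or young replicate 3.

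All 4 sulfatases rose in both states, by 0.40 to 1.04 in ICM cells and by 0.58 to 1.24 in old cells. IDS, the iduronate-2-sulfatase, rose most, by 1.04 (SE 0.06, adjusted p = 1.13e-12) in ICM and 1.24 (SE 0.06, adjusted p = 1.25e-13) in old cells. IDS, ARSB and SGSH, which act on dermatan or heparan sulfate, were lower in ICM than in old cells by log2 differences of -0.20, -0.19 and -0.41. The ARSB call was lost with CDS reads alone and without ICM replicate 1, ICM replicate 3 or old replicate 3. Omission of ICM replicate 3 also ended the IDS call. For ARSA, which acts on sulfatide, the difference was 0.04 (SE 0.08, adjusted p = 0.657). A gene without a symbol on the same strand covers 90.7% of the exonic bases of IDS and another covers 62.1% of those of CTSD, so the levels of IDS and CTSD are uncertain to that extent. Smaller overlaps of this kind, of up to 22.1% in MAN2B1, 19.0% in TPP1, 15.3% in NAGLU, 12.9% in HEXA and 8.11% in MCOLN1, limit those genes likewise.

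Of the 8 lipid hydrolases and cofactors 6 rose in each state. ASAH1, the acid ceramidase, was at 57.5, 59.4 and 61.6 CPM in young, 117, 124 and 112 in old and 214, 207 and 223 in ICM cells. The groups were clearly apart, and ASAH1 rose by 1.85 (SE 0.07, adjusted p = 8.81e-17) in ICM and 0.98 (SE 0.07, adjusted p = 1.71e-11) in old cells, with a difference of 0.87 (SE 0.06, adjusted p = 2.76e-11). SMPD1, the acid sphingomyelinase, rose by 0.82 and 0.92. GRN, the progranulin precursor, rose by 0.86 and 1.00. PSAP, from which the saposins are cut, rose by 0.19 and 0.35. GM2A, the GM2 activator, and NPC2, the luminal cholesterol carrier, rose by 0.81 to 0.93 in both states. NPC2 and NPC1 act in sequence on cholesterol, and for NPC2 the difference between ICM and old cells was -0.09 (SE 0.08, adjusted p = 0.314), with a 95% interval of -0.25 to 0.06.

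PPT1, the thioesterase that removes palmitate from proteins, and LIPA, the acid lipase, stood apart from their group. PPT1 was at 74.5, 59.5 and 55.8 CPM in young, 35.6, 38.5 and 32.7 in old and 59.3, 68.2 and 55.3 in ICM cells. Old libraries lay below all others, with a log2 change of -0.82 (SE 0.10, adjusted p = 2.49e-07), while ICM and young libraries overlapped. LIPA gave no call, with log2 changes of -0.004 and 0.04 and 95% intervals of -0.14 to 0.13 in ICM and -0.10 to 0.18 in old cells.

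The 5 proton pump genes rose in both states. In ICM cells their log2 changes ran from 0.51 to 1.24 and in old cells from 0.26 to 1.13. ATP6V1A, the catalytic subunit, was raised most in ICM cells, at 1.24 (SE 0.07, adjusted p = 2.06e-13), and ATP6AP1, the accessory subunit, most in old cells, at 1.13 (SE 0.06, adjusted p = 2.63e-13). The subunits of the cytosolic V1 sector, ATP6V1A, ATP6V1B2 and ATP6V1H, were higher in ICM than in old cells by 0.70, 0.35 and 0.28, ATP6AP1 was lower, with a difference of -0.34 (SE 0.06, adjusted p = 2.17e-05), and ATP6V0D1, of the membrane sector, differed by 0.01 (SE 0.06, adjusted p = 0.914).

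TFEB, the master transcription factor for lysosomal genes, did not move with them in ICM cells. It was measured at 4.47, 5.06 and 5.34 CPM in young, 6.77, 5.63 and 7.05 in old and 2.4, 1.67 and 1.7 in ICM cells. The ICM libraries lay below all others and the old libraries above all young ones. TFEB fell in ICM cells, with a log2 change of -1.35 (SE 0.20, adjusted p = 2.69e-06), and the difference between ICM and old cells was -1.72 (SE 0.19, adjusted p = 3.72e-08). Its rise in old cells was close to the threshold, at 0.36 (SE 0.16, adjusted p = 0.0481), and was lost in 7 of 13 alternative fits, including DESeq2, the replicate block and the omission of any young library, old replicate 1 or old replicate 3, with adjusted p up to 0.148. Other factors of the same family, of which TFE3 was singled out after its values were seen, rose in both states: MITF by 0.99 in ICM and 1.03 in old cells, and TFE3 by 0.53 and 0.55, all past the threshold. Their differences between ICM and old cells were -0.05 (SE 0.07, adjusted p = 0.587) and -0.02 (SE 0.06, adjusted p = 0.796).

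**Figure D3:**
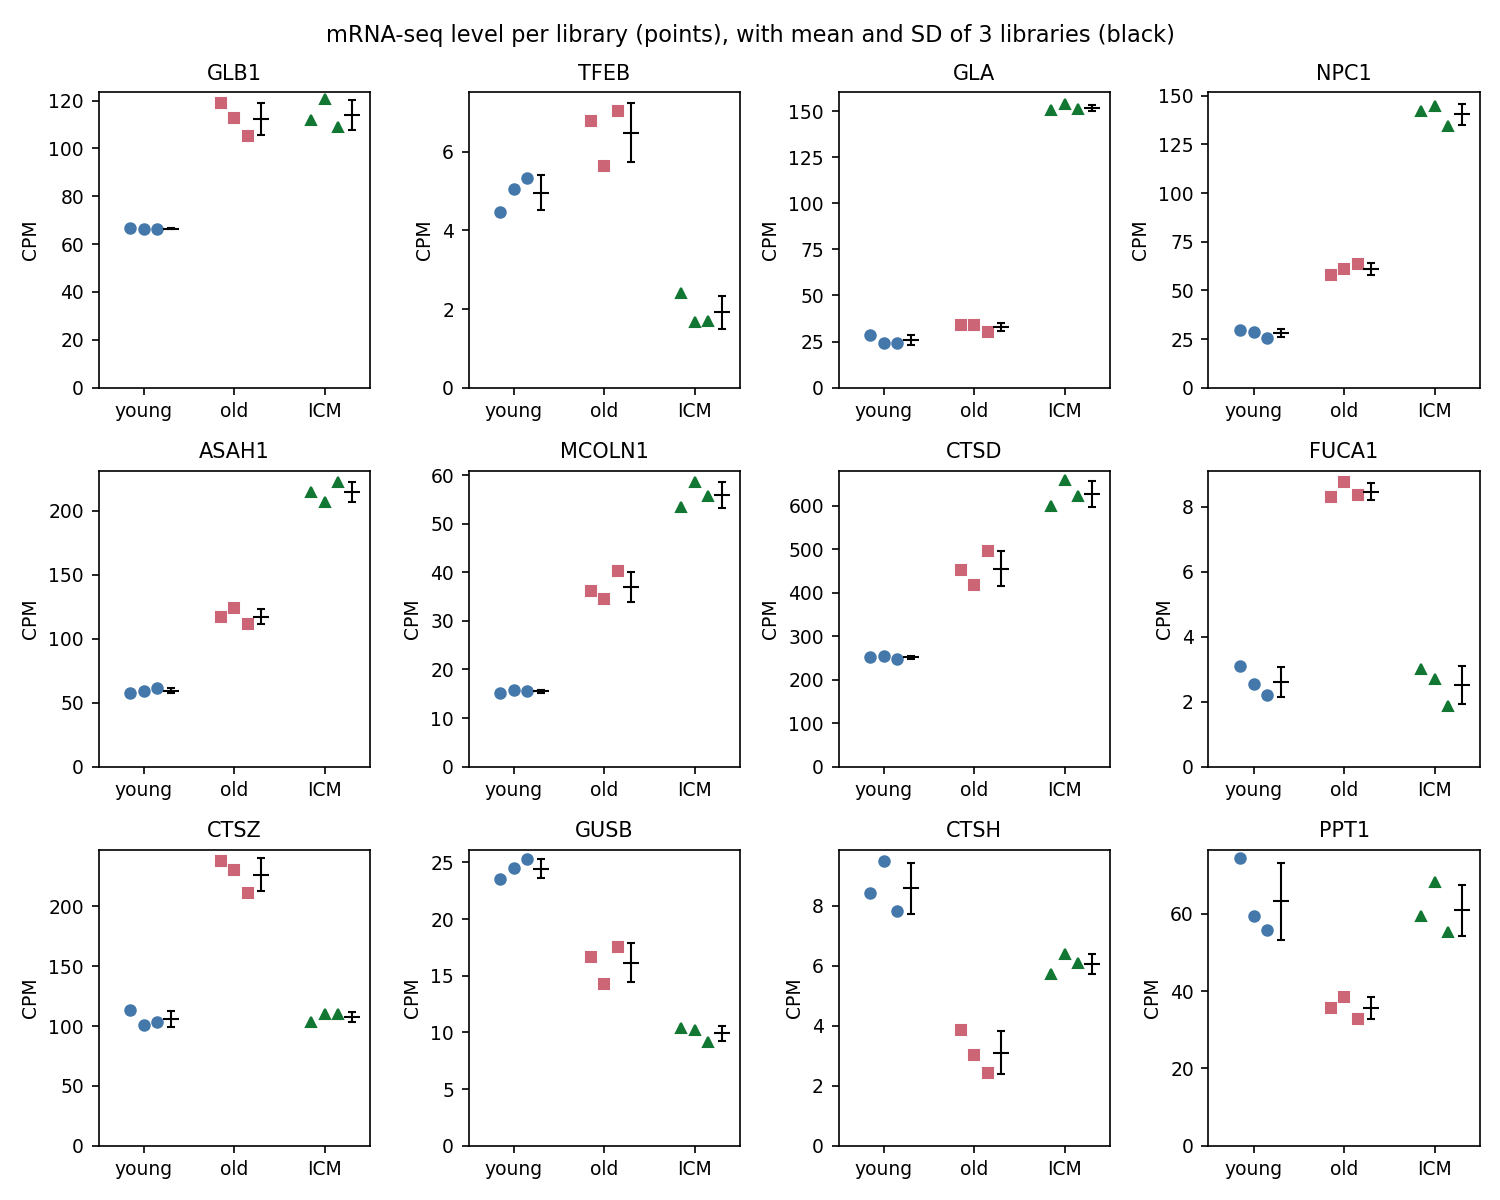
mRNA-seq level in CPM (y axis, linear from 0) of 12 lysosomal genes in each of the 3 young, old and ICM libraries, with the mean and SD of each group in black. ICM libraries are highest for GLA, NPC1, ASAH1, MCOLN1 and CTSD and lowest for TFEB and GUSB, old libraries are highest for FUCA1 and CTSZ and lowest for CTSH and PPT1, and both senescent groups overlap for GLB1.

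TFEB and its relatives bind the CLEAR motif, whose preferred letters include GTCACGTG. Promoter windows from RefSeq (GRCh38.p14), reaching from 250 bases before to 50 bases after each start, were matched by symbol to 31 of the 46 members. GTCACGTG on either strand was found in 7 of these 31 genes (22.6%), compared with 2.93% of all 27305 genes and 4.07% of 15842 protein-coding genes with a window. Its core CACGTG, which includes these matches, was found in 10 of 31 members (32.3%) and in 8.77% of all genes and 10.9% of protein-coding genes. No test was applied to these shares. The members were chosen for lysosomal function, and TFEB is already known as a factor for such genes, so the shares are a description only. The most upstream match of each gene is shown because these are the letters that TFEB-family factors are known to prefer, read 5′ to 3′ on the strand of the gene, with the motif in capitals.
LAMP1: gaccaggccggGTCACGTGggtccagggtc
MCOLN1: gaccagaggcgGTCACGTGaggggctctgg
CTSA: ggaggaagactGTCACGTGgcgccggagtt
CTSD: ccggccgcgccCACGTGACcggtccgggtg
GAA: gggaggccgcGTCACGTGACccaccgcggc
ARSB: aattcaataagCACGTGACtaaaggatttt
ATP6V0D1: gcccccttatgGTCACGTGaggcgcttgcg

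These stretches lie at chr13:113297034-113297063 (LAMP1), chr19:7522570-7522599 (MCOLN1), chr20:45891280-45891309 (CTSA) and chr17:80101493-80101522 (GAA) on the plus strand, and at chr11:1763956-1763985 (CTSD), chr5:78986100-78986129 (ARSB) and chr16:67481200-67481229 (ATP6V0D1) on the minus strand. The motifs shown begin 194, 43, 44, 78, 47, 160 and 61 bases before the start in LAMP1, MCOLN1, CTSA, GAA, CTSD, ARSB and ATP6V0D1. The LAMP1 window held 6 separate matches, those of GAA, MCOLN1 and CTSA 2 each, and the palindromic GAA match carries the motif on both strands. Of the 7 genes, 6 rose in ICM cells (median log2 change 0.56) and 6 in old cells (median 0.51). Of the 24 matched members without the motif in the window, 15 rose and 3 fell in ICM cells (median 0.50), and 18 rose and 4 fell in old cells (median 0.69). LAMP1, with the most matches, was among the members without a call in ICM cells. GLB1, GLA and NPC1 had a window without these letters, which says nothing about whether a factor acts on them.

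Levels of different genes were compared as CDS CPM per 1000 coding bases. In young mRNA-seq libraries CD63 was highest at 1584 ± 106 and CTSS lowest at 0.808 ± 0.422 (SD, n = 3), with a median of 41.0 over the 46 genes. CTSB, PSAP, CTSC, LAMP1 and CTSD followed CD63 in that order. The median rose to 55.0 in old and 69.7 in ICM cells. The order at the top changed little, with CD63, CTSB and PSAP first in all 3 conditions and in both assays. GLA moved from rank 30 in young cells to rank 29 in old and rank 11 in ICM cells, at 29.1 ± 2.76, 37.8 ± 2.9 and 177 ± 2.17. ASAH1 moved from rank 17 to rank 10 and NPC1 from rank 42 to rank 30 between young and ICM cells. GLB1, at rank 21 in young and ICM and 18 in old cells, stayed a gene of middle abundance, and TFEB was at rank 44, 44 and 45.

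**Figure D4:**
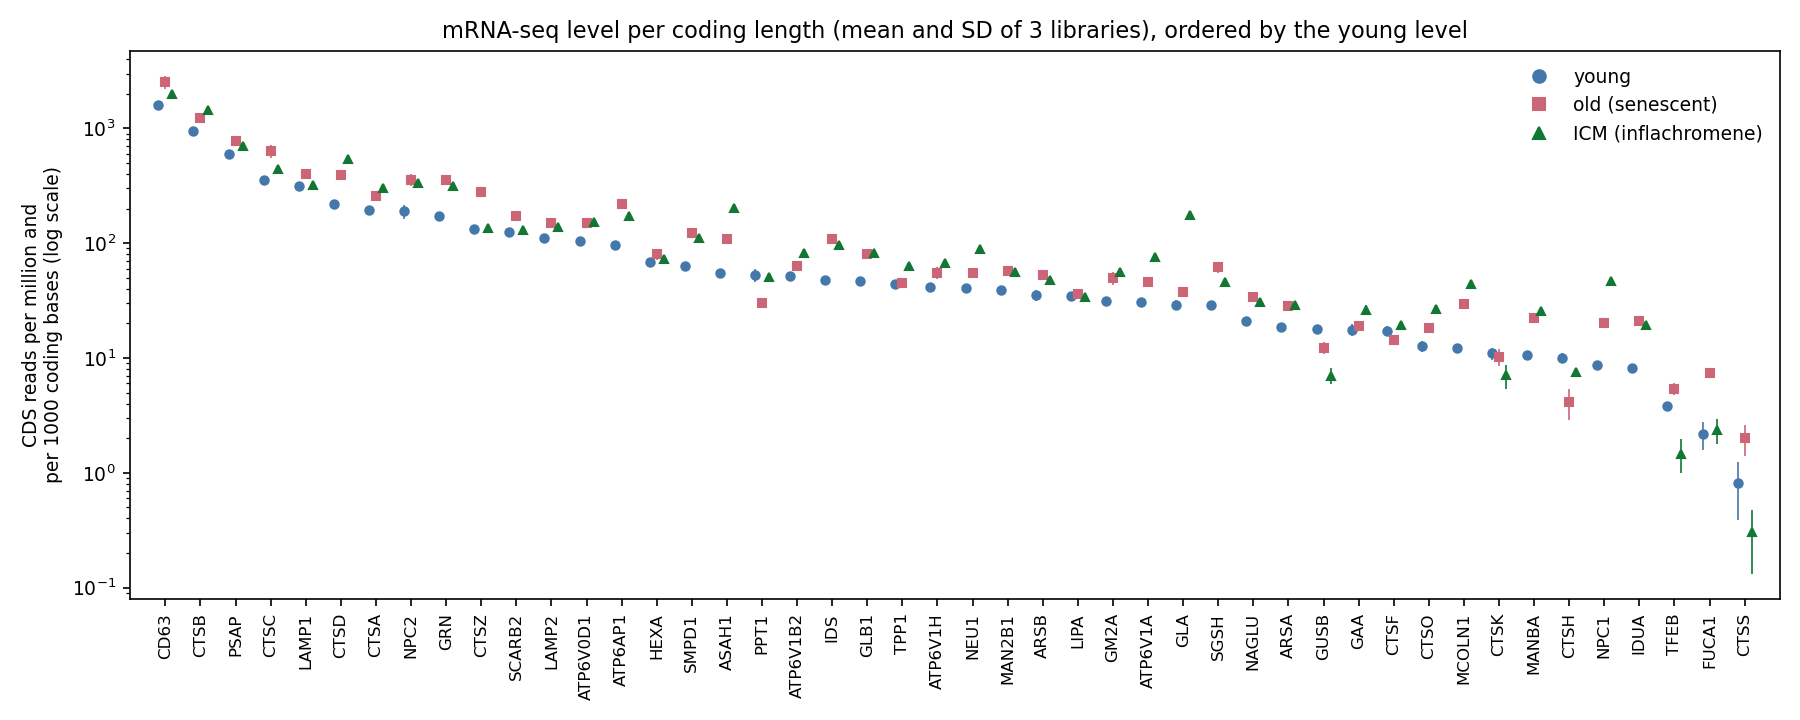
mRNA-seq level of the 46 genes in CDS CPM per 1000 coding bases (y axis, log scale; mean and SD of 3 libraries), ordered by the young level, with circles for young, squares for old and triangles for ICM cells. Levels run from 0.304 for CTSS in ICM cells to 2534 for CD63 in old cells, and the ICM values of GLA and NPC1 stand far above their neighbours.

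Footprints allowed a test of 35 of the 46 members among 4643 genes. The 11 that did not pass the filter were CTSF, CTSH, CTSK, CTSO, CTSS, GUSB, IDUA, FUCA1, IDS, GM2A and TFEB, with 14 to 188 reads over all 9 libraries, so all 5 members whose mRNA fell in ICM cells (CTSH, CTSK, CTSS, GUSB and TFEB) were without a footprint test. Counts over the tested members therefore cover the abundant members. In ICM cells 21 of 35 rose by edgeR and none fell, with a median log2 change of 0.89. Of all tested genes 13.7% rose and 12.9% fell, with a median of -0.0004. In old cells 20 of 35 rose by edgeR and none fell, with a median of 0.69, compared with 19.3% and 17% of all genes. DESeq2 called fewer members, 11 in ICM and 7 in old cells, and none of them fell. At an unadjusted p under 0.05 edgeR gave 24 members in each of these comparisons. No share of all genes is given at that level. In ICM relative to old cells 3 were higher (GLA, NPC1 and ASAH1) and ATP6AP1 was lower, compared with 5.79% and 7.62% of all genes. The calls of GLA and NPC1 held in all 13 alternative fits, whereas that of ASAH1 was lost in 6, including DESeq2 and the fits without ICM replicate 1, old replicate 1 or old replicate 3.

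The number of footprint calls depended strongly on single libraries. In ICM cells it was 6 without young replicate 2, young replicate 3 or ICM replicate 1 and 11 with DESeq2. In old cells it was 5 without young replicate 2, 8 without young replicate 3, 9 without old replicate 1, 10 without old replicate 3 and 7 with DESeq2. Young replicate 1 and old replicate 2, which also had the lowest CDS shares, and ICM replicate 3 were the shallowest Ribo-seq libraries of their conditions. With these left out together, 41 members could be tested, 18 rose in ICM and 27 in old cells, none fell, and the medians were 0.81 and 0.68. The shares of all genes given above belong to the main fit. These counts therefore have no share beside them and cannot be read as a change particular to the members.

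NPC1 and GLA again stood out. NPC1 footprints were at 218, 67.1 and 61.1 CPM in young, 123, 40.2 and 146 in old and 443, 341 and 251 in ICM libraries. Young replicate 1, which stood apart, was above the other young libraries, but every ICM library was higher still, and the log2 change was 2.44 (SE 0.30, adjusted p = 1.07e-07) in ICM relative to young and 1.58 (SE 0.28, adjusted p = 7.51e-05) relative to old cells. Without the 3 lysates both calls held, and the difference from old cells was 1.53. GLA footprints were at 79.2, 52.7 and 52.8 CPM in young, 66.8, 80.5 and 47.2 in old and 301, 205 and 137 in ICM libraries. Old and young libraries overlapped, and ICM libraries exceeded young ones by 2.19 (SE 0.31, adjusted p = 1.31e-06) and old ones by 2.01 (SE 0.31, adjusted p = 7.43e-06). MCOLN1 was at 19.8, 19.2 and 19.7 CPM in young, 69.7, 40.2 and 51.3 in old and 103, 68.2 and 68.5 in ICM libraries, from 1 read in young replicate 1 to 98 in old replicate 1. It rose in ICM cells by 2.17 (SE 0.47, adjusted p = 0.000663) and in old cells by 1.65 (SE 0.36, adjusted p = 0.000481), with few reads behind both calls. The ICM call was lost without ICM replicate 1, with an adjusted p of 0.122, and the gene could not be tested in 3 of the 13 alternative fits. The old call was lost in 2 of the 9 alternative fits that could test the gene, including DESeq2, with adjusted p up to 0.109.

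The largest footprint rises in old cells were those of MCOLN1, ARSA and CTSD. ARSA, the sulfatide sulfatase, was at 19.8, 20.8 and 26.7 CPM in young, 70.4, 80.5 and 86.2 in old and 78.8, 136 and 0 in ICM libraries. Old libraries were separated from young ones (1.63, SE 0.35, adjusted p = 0.000411), the ICM value of 0 came from the shallowest library and made the ICM and young ranges overlap, and the old call was lost without young replicate 2 or old replicate 3. CTSD was at 357, 377 and 347 CPM in young, 906, 765 and 942 in old and 1123, 1528 and 822 in ICM libraries. Both senescent groups lay above young, by 1.31 (SE 0.19, adjusted p = 1.49e-06) in old and 1.71 (SE 0.20, adjusted p = 4.52e-08) in ICM cells, and the old call held in all 13 alternative fits. ATP6AP1, at 257, 144 and 141 CPM in young, 322, 282 and 349 in old and 232, 164 and 91.3 in ICM libraries, rose in old cells (1.14, SE 0.21, adjusted p = 5.06e-05). It was lower in ICM than in old cells, with a log2 difference of -0.78 (SE 0.27, adjusted p = 0.0439), a call that was lost in 7 of 13 alternative fits, including DESeq2, with adjusted p up to 0.197.

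GLB1 footprints were at 19.8, 92.7 and 91.0 CPM in young, 178, 101 and 172 in old and 118, 300.1 and 114 in ICM libraries, and the lowest value, in young replicate 1, was a single read. All senescent libraries lay above all young ones, while old and ICM libraries overlapped. The separation from young libraries rested on few reads. Old replicate 2 and ICM replicate 3 held 5 reads each, and young replicate 2 held 58. GLB1 rose in old cells by 0.95 (SE 0.25, adjusted p = 0.00292), a call that was lost with DESeq2 and without young replicate 2, young replicate 3 or old replicate 1, with adjusted p up to 0.184. In ICM cells the change was of similar size but did not pass the threshold, at 0.90 (SE 0.34, adjusted p = 0.0502), and adjusted p ran from 0.0296 to 0.559 over the alternatives. TFEB footprints were too few to test, with 8 reads in young, 14 in old and 0 in ICM libraries.

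By role the footprint medians were positive throughout relative to young cells. Of all genes tested in footprints 13.7% rose in ICM and 19.3% in old cells, and each role held few tested members. In ICM cells glycosidases had a median log2 change of 1.26 (5 of 8 tested rose) and proton pump genes 0.79 (3 of 5). Membrane proteins had 0.59 (4 of 6), proteases 0.62 (4 of 6), sulfatases 1.00 (2 of 3) and lipid hydrolases or cofactors 0.68 (3 of 7). In old cells the corresponding medians were 0.81 (5 of 8), 0.62 (3 of 5), 0.62 (3 of 6), 0.57 (3 of 6), 1.22 (2 of 3) and 0.58 (4 of 7). Of the 29 tested members whose mRNA rose in ICM cells, 20 also rose in footprints, and LAMP1 was called in footprints alone (0.61, SE 0.20, adjusted p = 0.019), a call that was lost in 8 of 13 alternative fits, including DESeq2 and the omission of any ICM library, young replicate 2 or young replicate 3. In old cells 20 of 31 members with raised mRNA rose in footprints. The matching shares over all genes with raised mRNA were not computed, so these counts do not set the members apart from other genes.

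**Figure D5:**
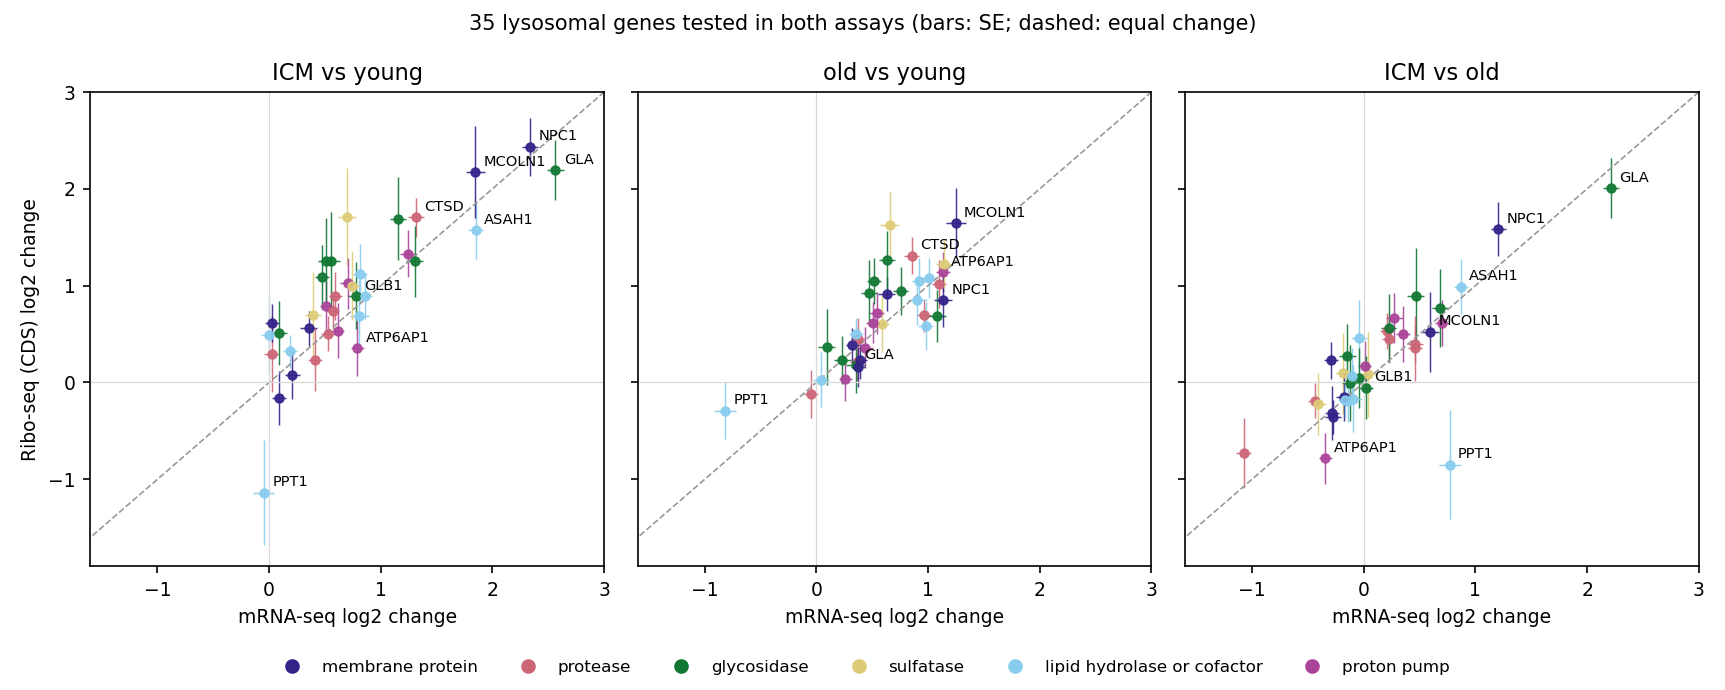
Log2 change in mRNA-seq (x axis) against log2 change in Ribo-seq CDS reads (y axis) for the 35 members tested in both assays, in the 3 comparisons, coloured by role, with SE bars and a dashed line of equal change. Most genes lie near the line, GLA and NPC1 are at the upper right relative to young and to old cells, and PPT1 lies below the line in both ICM panels.

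Translational efficiency, the footprint change beyond the mRNA change, was tested in a joint edgeR model over both assays. None of the 35 members was called in any comparison, with 2.45% of 4618 genes called in ICM relative to young cells, 1.45% in old relative to young and 0.26% in ICM relative to old cells. At an unadjusted p under 0.05 there were 3, 5 and 2 members, and DESeq2 called none. No share of all genes is given at that level, so these counts do not set the members apart. Median log2 changes in efficiency were 0.20, 0.12 and 0.06, compared with 0.06, 0.05 and -0.002 over all genes, and the standard errors ran from 0.17 to 0.54. LAMP1 had the smallest adjusted p in ICM cells, with an efficiency change of 0.62 (SE 0.20, adjusted p = 0.0842). GLB1 efficiency changed by 0.13 ± 0.35 (SE) in ICM cells, with a 95% interval of -0.55 to 0.81, and by 0.24 ± 0.27 in old cells, with -0.29 to 0.76. PPT1 had the most negative values, -1.21 (SE 0.54, adjusted p = 0.249) relative to young and -1.71 (SE 0.53, adjusted p = 0.175) relative to old cells, from 9 footprint reads over the 3 ICM libraries.

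A second set of 97 lysosomal genes in 5 lists, of which 91 could be tested in mRNA-seq, was described in the same way. In ICM cells 66 rose and 7 fell, beside 34.9% and 36.1% of all genes. In old cells 61 rose and 11 fell, beside 32.4% and 33.7%, and between ICM and old cells 40 were higher and 21 lower, beside 30.7% and 32.6%. Of 31 other hydrolases and cofactors tested, 23 rose and 3 fell in ICM cells and 21 rose and 5 fell in old cells. EPDR1, a lysosomal glycoprotein related to ependymins, had the largest rise in ICM cells at 2.32 (SE 0.13, adjusted p = 4.72e-13), from 3.97, 4.36 and 3.53 CPM in young to 19.6, 19.4 and 20.3 in ICM cells, while old cells had 0.538, 0.593 and 0.185. LGMN, the asparaginyl endopeptidase legumain, rose most in old cells (1.85, SE 0.08, adjusted p = 3.58e-15). In old cells EPDR1 fell, with a log2 change of -3.12 (SE 0.29, adjusted p = 3.56e-09). AGA fell in old cells (-0.56). PLA2G15, a lysosomal phospholipase, was lower in ICM than in old cells (-1.03, SE 0.08, adjusted p = 1.23e-10).

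Of 22 other membrane proteins 18 rose and 1 fell in ICM cells and 16 rose and 2 fell in old cells. CD68 rose most after ICM treatment (1.51, SE 0.09, adjusted p = 6.44e-13) and the sialic acid exporter SLC17A5 in old cells (1.26, SE 0.07, adjusted p = 6.31e-13), while LAPTM4B fell in both (-0.38 and -0.39). Of 15 other pump subunits 11 rose and 2 fell in ICM cells and 10 rose and none fell in old cells, with 14 and 10 passing an unadjusted p under 0.05. ATP6V0A1, a membrane-sector subunit, led in ICM cells (1.56, SE 0.08, adjusted p = 2.44e-14) and ATP6V1G1 in old cells (1.33, SE 0.08, adjusted p = 1.22e-12), and ATP6V0E2 fell in ICM cells (-1.01). Among 9 genes for enzyme delivery and maturation 6 rose in each state. CLN8 and CLN6, partners in carrying hydrolases out of the endoplasmic reticulum, moved in opposite directions: CLN8 rose by 1.26 and 1.18 and CLN6 fell, with -1.35 in ICM and -0.85 in old cells. Of 14 factors and regulators of the TFEB family 8 rose in each state, none fell in ICM cells (8 differed at an unadjusted p under 0.05) and 2 fell in old cells, including FNIP1 (-0.83).

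In footprints 52 of the 97 genes could be tested. A total of 17 rose and none fell in ICM cells, with 23 at an unadjusted p under 0.05, beside 13.7% and 12.9% of all genes tested in footprints. In old cells 20 rose and 1 fell, beside 19.3% and 17%. ATP6V0A1 footprints were at 19.8, 28.8 and 45.2 CPM in young, 128, 80.5 and 156 in old and 182, 205 and 251 in ICM libraries and rose in both states, by 2.36 and 1.80. CTSL, another cysteine cathepsin, was higher in ICM than in old cells (1.28, SE 0.24, adjusted p = 0.000181), and LGMN rose most in old cells (2.20, SE 0.27, adjusted p = 6.91e-08).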

How the data were processed

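Ribo-seq and poly(A) mRNA-seq of the same lysates were analysed in 18 libraries, 3 per condition and assay. The deposited values are estimated counts per gene and region (5′UTR, CDS, 3′UTR), made by the authors from their reads, and some are not whole because reads were divided. The submitters' processing notes name GRCh37, STAR 2.6.0c, featureCounts, DESeq2 and deepTools without giving their roles, and the annotation is not given in the sources used here. Values were rounded to whole numbers, with CDS counts used for Ribo-seq and the sum of the 3 regions for mRNA-seq.

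edgeR 4.0.16 (R 4.3.3) quasi-likelihood tests with TMM scaling and Benjamini-Hochberg adjustment over all genes tested were fitted over all 3 conditions, after a filter on low counts, with calls at an adjusted p under 0.05. Translational efficiency was the assay-by-condition interaction in a joint model with the lysate as a block. The study itself used another tool for this. Intervals of log2 changes are ± 1.96 SE, and binomial intervals cover counting error alone. Counts at an unadjusted p under 0.05 have no share of all genes beside them. The fits were tried on simulated data, scored for ICM relative to young cells only. The simulation held no lysate effect and no ICM-specific reads in other groups, so it could not show how the fits handle these. DESeq2 1.42.0, RLE scaling, no filter, fewer groups and left-out libraries were tried as alternatives.

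The members and lists were chosen with earlier results of these data known. Values in every library are given for GLB1, TFEB and, per assay and comparison, up to 3 called rises and 3 called falls with a mean of at least 5 CPM and groups that do not overlap; the gene with the largest rise or fall of each further list was named by the same rule. Others named with all their values were chosen after these were seen. Coding lengths came from GENCODE canonical transcripts of GRCh37 and promoter windows from RefSeq. The result for one gene of the further lists is not reported here.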

Additional observations from a re-analysis of the deposited data

Results flagged for a closer look

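TFEB mRNA was called in opposite directions relative to young cells, lower in ICM cells by -1.35 and higher in old cells by 0.36 on the log2 scale, and the difference between ICM and old cells was itself tested at -1.72 (edgeR adjusted p = 3.72e-08). CTSS was likewise lower in ICM and higher in old cells, with a difference of -1.38 between them, at levels near 1 CPM. The CTSS fall in ICM cells was lost in 8 of 13 alternative fits, with DESeq2, without the filter and when any single ICM or young library was left out, and both rises in old cells were lost with DESeq2, whereas the differences between ICM and old cells were called by DESeq2 as well.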

How the results depend on the processing

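The mRNA-seq counts of members called (38 in ICM relative to young, 42 in old relative to young and 35 in ICM relative to old cells) ranged over 36 to 37, 40 to 41 and 30 to 35 when single libraries were left out, and fell to 25, 25 and 13 with an absolute log2 change above 0.6 required. Shares of all genes are not given for the alternative counts in this section, which therefore describe the members alone. Footprint counts (21, 20 and 4) depended more on the processing. DESeq2 gave 11, 7 and 2, no filter gave 8 for ICM relative to young cells, an adjusted p under 0.15 gave 7 for ICM relative to old cells, and leaving out single libraries gave 6 to 20, 5 to 23 and 2 to 6. No member was called for translational efficiency when single libraries were left out (0 to 0), while an adjusted p under 0.15 gave 1 in ICM relative to young cells, and the fits with no replicate block (the lysate) gave 1 (LAMP1) and 3 (ARSA, CTSD and MAN2B1) relative to young cells. With CDS reads alone the mRNA share of the members was 0.710%, 1.03% and 1.08% in young, old and ICM cells. Rounding tied values up, an alternative chosen after seeing the data, gave 22, 20 and 4 footprint calls. The cause of these differences was not tested.

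Replicate numbers gave little sign of pairing: deviations of libraries with the same number correlated at -0.093 to 0.129 in mRNA-seq and 0.0021 to 0.0387 in Ribo-seq. The 2 assays of the same lysate correlated no better, at -0.071 to 0.119, so such low values cannot exclude pairing. With the number as a replicate block 38, 41 and 35 members were called in mRNA-seq and 11 in each footprint comparison with young cells. The block ended the mRNA call of TFEB in old relative to young cells (adjusted p = 0.0506) and 10, 9 and 2 footprint calls in the 3 comparisons, including LAMP1 in ICM relative to young, MCOLN1 in old relative to young (adjusted p = 0.109) and ATP6AP1 (adjusted p = 0.0887) and ASAH1 in ICM relative to old cells. No called value of a named gene changed its direction under these alternatives.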
